A study of Homo sapiens with 27 samples.

Results

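The 10 genes described here, DUSP4, DUSP6, SPRY2, SPRY4, SPRED1, ETV4, ETV5, PHLDA1, EGR1 and FOSL1, are transcripts through which the output of the MAPK (RAS-RAF-MEK-ERK) pathway is commonly read. Their rows were taken by symbol, with no threshold on a measured value, from the 13523 genes of a normalised expression table of 501mel cells, a human melanoma line high in MITF that carries an oncogenic BRAF mutation per the study's methods. RNA was profiled with QuantSeq Forward 3′ end libraries, which count the 3′ ends of transcripts, so gene length does not enter the values. All groups are 501mel cells. Unedited (WT) cells stayed untreated or spent 12 h in HBSS (a salt solution that has glucose but lacks amino acids). Others spent 12 h with the mTOR kinase inhibitor Torin at 250 nM (Torin1 in the labels). The study's methods describe growth medium with serum and do not say whether the HBSS held serum. Loss of amino acids and loss of serum therefore cannot be told apart in HBSS. Cells without TFE3 (TFE3 KO), without TFEB (TFEB KO) or without both (DKO) had Torin or no drug over the same 12 h. TFE3 and TFEB belong to the same family of transcription factors as MITF. Each Cas9 knockout is 1 clone according to the methods of the study, so clone and genotype cannot be told apart in any comparison between genotypes, and WT cells were labelled as non-treated while knockout controls were labelled as 12 h controls.

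In the MAPK pathway, RAS activates RAF kinases, these activate the MEK kinases, and these activate ERK, which phosphorylates transcription factors and switches on a set of genes within minutes to hours. Some of these genes encode inhibitors that act back on the pathway (dual specificity phosphatases, Sprouty and SPRED proteins), and others encode transcription factors that carry the signal on (the ETS factors ETV4 and ETV5, EGR1 and the AP-1 subunit FOSL1). In melanomas with an active BRAF mutation this set is kept on by the mutant kinase. mTOR is a separate growth kinase, active when amino acids and growth factors are present, and it keeps TFEB and TFE3 in the cytoplasm.

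The labels gave 27 libraries in 9 groups of 3, with 4147050 to 6526392 reads each. The columns labelled WT HBSS replicate 3 and WT Torin replicate 1 were identical in 13523 of 13523 genes, and neither entered a group, which left 25 libraries, with 2 each for WT HBSS and WT Torin and 3 for every other group. Kept as a WT Torin library, the column left 1 of the 5 DKO differences without drug. It left 0 of the differences in Torin response between genotypes called for DUSP4, SPRY4, ETV4, EGR1 and FOSL1. No WT Torin library enters the DKO differences without drug, or those in Torin response between TFE3 KO and TFEB KO cells. Their log2 values stayed the same, and the column acted through the shared estimate of the spread. Differences in Torin response named for other genes were not rerun with it. The rise of DUSP6 with Torin in WT cells no longer passed with the column kept in this way (limma adjusted p = 0.294). The labels do not say that the libraries of a group came from separate cultures, so the p-values measure the spread between these libraries, which may be technical. Values are normalised CPM, and the 3 reads that a count of 0 leaves possible are worth 0.460 to 0.711, a floor for counting error only. TFE3 was at 23.8 to 24.3 in untreated WT cells, 5.06 to 7.59 in TFE3 KO controls and 5.93 to 6.86 in DKO controls. With Torin it was at 17.5 to 20.4 in WT cells and at 9.13 to 13.99 in TFE3 KO cells, where it rose against the controls (log2 0.68, limma adjusted p = 0.0010), and at 6.15 to 8.46 in DKO cells. TFEB was at 2.34 to 3.96 in untreated WT cells and at 4.27 to 5.63 in WT cells with Torin. In WT HBSS it was at 28.0 to 30.4 (log2 2.85, limma adjusted p = 4.4e-09). It was at 0.750 to 1.66 in TFEB KO controls and as low, at 0.177 to 1.56, in TFE3 KO controls. TFEB RNA thus did not set the 2 single knockouts apart. All 8 melanocyte markers were in the table, with a sum of 5193 to 14482 per library. Endothelial markers (0 of 3) were missing from it, and 1 of 4 keratinocyte markers (KRT10), 2 of 5 fibroblast markers and 1 of 4 leukocyte markers (CD68) were in it. Per library the fibroblast sum was 0.208 to 6.62, KRT10 was at 48.1 to 117 and CD68 at 29.5 to 74.2. Fewer cells of a state and less RNA per cell cannot be told apart in such libraries.

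All 10 genes were detected and all passed the filter on low values (a value of 1 or more in 3 or more libraries), which 13052 genes in all passed. Differences were tested with limma on log2(value + 1) in 1 fit over the 25 libraries, and a gene is called changed where the Benjamini-Hochberg adjusted p over all 13052 genes was under 0.05. Percentages and folds compare group means of the values, while log2 values come from the fit. They therefore do not convert exactly into each other, least of all for low genes. The 10 genes fall into 3 tiers of level. DUSP4, DUSP6, ETV5 and PHLDA1 lay between 84.3 and 383 in every library, SPRED1 and ETV4 between 37.9 and 84.5, and SPRY2, SPRY4, EGR1 and FOSL1 between 0 and 29.4. Their range over the 9 groups differed as much as their level. EGR1 spanned a 6.10-fold range of group means. EGR1 and FOSL1 were both lowest in WT HBSS and highest in TFE3 KO controls, and FOSL1, at a mean of 8.37 in the latter, stood on 6 and 0 reads in the former, so no fold is given for it. SPRY4 spanned 2.89-fold, DUSP6 2.16-fold and DUSP4 2.06-fold. ETV5 was the steadiest of the 10, with a 1.26-fold range. The genes with the widest ranges were also those with the fewest reads, 0 to 66 per library for FOSL1 and 12 to 192 for EGR1, against 710 to 1913 for DUSP6.

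**Figure D1:**
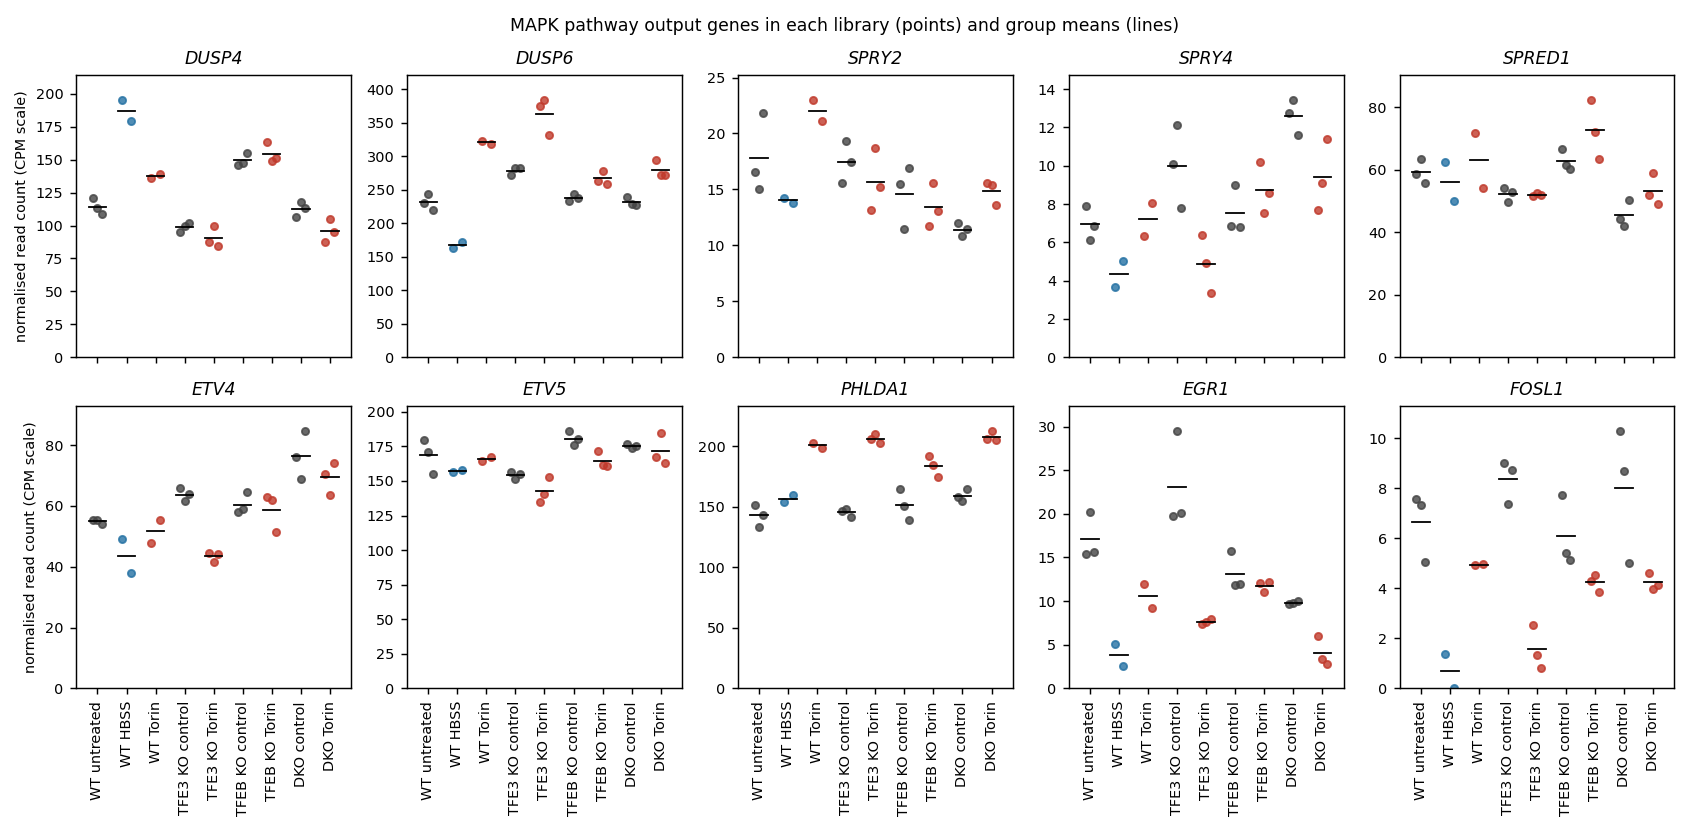
Normalised read counts (CPM scale, each axis starting at 0) of the 10 genes in each of the 25 libraries used, with points for libraries, lines for group means, grey for no drug, blue for HBSS and red for Torin. EGR1 and FOSL1 sit lowest in WT HBSS, PHLDA1 sits higher in Torin in every genotype, and DUSP6 is highest in TFE3 KO with Torin, at 331 to 383.

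EGR1, a zinc finger factor switched on within minutes of ERK activation, is the textbook immediate-early gene. CArG boxes are the sites of serum response factor, which binds together with ERK substrates of the ETS family, and TGACG is the core letters of a cAMP response element. The 250 bases before the start of EGR1 (RefSeq, GRCh38.p14, chr5:138465229-138465478, plus strand) are shown because EGR1 was the only one of the 10 genes that fell in WT cells with both treatments. Capitals mark 2 CArG boxes, which begin 105 and 83 bases before the start, and 2 matches to TGACG, on either strand, at 135 and 66 bases.
EGR1: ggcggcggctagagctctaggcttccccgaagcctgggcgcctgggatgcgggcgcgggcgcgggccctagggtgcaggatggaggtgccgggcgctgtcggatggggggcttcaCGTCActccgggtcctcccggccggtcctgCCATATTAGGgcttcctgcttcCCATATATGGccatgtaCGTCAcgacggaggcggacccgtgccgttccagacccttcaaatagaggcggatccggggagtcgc
A CArG box stood in the same window of 1.16% of 35114 RefSeq promoters and TGACG in 21.2%. Promoters of 6 of the 10 genes were in the table, those of DUSP6, SPRY2, SPRY4, SPRED1, PHLDA1 and EGR1. EGR1 alone among these 6 had a CArG box, while TGACG was also in the windows of SPRY2 and SPRY4. The letters CACGTG, which MITF, TFEB and TFE3 can bind as an E-box, were in 0 of the 6 windows and in 6.35% of all promoters. TGANTCA, the AP-1 motif, was in 0 of the 6 (6.57% of all promoters), and CCGGAA, the core of an ETS site, was in those of SPRY2 and PHLDA1 (14.5%). TGACGTCA, a longer form that contains TGACG, was in 0 of the 6 (1.65%). All motifs were searched on both strands, and a match is only a match of letters.

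The first comparison addresses what 12 h in HBSS does to these genes in WT cells. The 2 nuclear factors EGR1 and FOSL1 fell several-fold, DUSP6, SPRY4 and ETV4 fell to a lesser extent, and DUSP4 rose. The remaining 4 genes, SPRY2, SPRED1, ETV5 and PHLDA1, did not pass the test, although SPRY2 (log2 -0.49, limma adjusted p = 0.0153) and PHLDA1 (log2 0.17, limma adjusted p = 0.0481) did with the identical column kept as WT HBSS. Thus 6 of 10 genes changed, 1 up and 5 down, where 48.3% of all genes tested changed (23.6% up, 24.7% down). The total is near the members' share. By direction a larger share of the members fell and a smaller share rose, a difference that was not tested. Changes of at least 1 on the log2 scale were found for 2 of 10, against 13.1% of all genes. The median log2 fold change of the 10 was -0.32, against -0.03 over all genes.

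EGR1 was at 15.4, 20.2 and 15.6 in untreated WT cells and at 5.06 and 2.51 in HBSS. Every untreated library was above both HBSS libraries, and the group mean of EGR1 fell by 77.8%. Its fitted log2 value was -1.96 (SE 0.23, limma adjusted p = 1.0e-09). FOSL1, which pairs with JUN proteins to form AP-1, was at 7.56, 7.32 and 5.07 in untreated cells and at 1.38 and 0 in HBSS, the latter standing on 6 and 0 reads. It fell by 2.29 (SE 0.30, limma adjusted p = 1.3e-08), and a count of 0 at the depth of the second HBSS library allows a value of up to 0.628. The size of the fall depended on that library and on the pseudocount, at log2 -1.67 without HBSS replicate 2 and log2 -4.11 with a pseudocount of 0.1, and the test was passed in both.

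The 2 ERK phosphatases moved in opposite directions. DUSP6, which removes phosphates from ERK in the cytoplasm (chr12:89347235-89352501, hg38, minus strand), was at 230.1, 243 and 220.1 in untreated cells and at 163 and 172 in HBSS. It fell by 27.4%, or 0.46 on the log2 scale (SE 0.08, limma adjusted p = 2.5e-06). DUSP4, the nuclear relative of DUSP6, was at 121, 113 and 109 and rose to 195 and 179. Its rise was 1.64-fold, or 0.71 on the log2 scale (SE 0.09, limma adjusted p = 1.1e-08), with no overlap between the groups for either phosphatase.

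Of the Sprouty and SPRED genes, whose products restrain RAS and RAF activation, only SPRY4 passed, and narrowly. SPRY4 was at 7.89, 6.14 and 6.83 in untreated cells and at 3.68 and 5.02 in HBSS, a fall of 0.58 on the log2 scale (SE 0.24, limma adjusted p = 0.0406). The table also has a row for SPRY4-IT1, a transcript of the same locus, and how reads were divided between them is not given, so the level of SPRY4 is uncertain to that extent. SPRY4 no longer passed with edgeR (adjusted p = 0.0716), with DESeq2 (adjusted p = 0.0882), in a limma fit of only these groups (adjusted p = 0.0693), or without WT replicate 1, WT replicate 3 or HBSS replicate 1 (limma adjusted p = 0.122, 0.0660 and 0.309). SPRY2 (-0.31, 95% confidence interval -0.68 to 0.07) and SPRED1 (-0.08, -0.33 to 0.16) did not pass.

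ETV4, an ETS factor of the PEA3 group, was at 55.5, 55.2 and 54.1 in untreated cells and at 49.2 and 37.9 in HBSS. It fell by 0.34 on the log2 scale (SE 0.12, limma adjusted p = 0.0143), a call that rested on HBSS replicate 2, without which it was at log2 -0.15 (limma adjusted p = 0.419). Its close relative ETV5 did not pass (-0.10, 95% confidence interval -0.27 to 0.07), nor did PHLDA1, a pleckstrin homology domain protein induced by growth signals (0.13, -0.03 to 0.30).

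Torin addresses what inhibition of mTOR does to the same genes. In WT cells DUSP6, PHLDA1 and DUSP4 rose and EGR1 fell, and the other 6 genes did not pass. These 4 of 10, 3 up and 1 down, stand against 43.9% of all genes (20.5% up, 23.4% down), and 0 of 10 changed by at least 1 on the log2 scale against 9.66% of all genes. The median of the 10 was 0.06, against 0.00 over all genes.

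DUSP6 was at 323 and 318 with Torin, above all 3 untreated libraries, a 1.39-fold rise (0.47 on the log2 scale, SE 0.08, limma adjusted p = 2.1e-06). PHLDA1 was at 152, 134 and 143 in untreated cells and at 203 and 199 with Torin (1.41-fold, log2 0.49, SE 0.08, limma adjusted p = 3.5e-06). Neither pair of groups overlapped. DUSP4 was at 136 and 139, a rise of 0.27 on the log2 scale (SE 0.09, limma adjusted p = 0.0163). This rise was lost without WT replicate 3, Torin replicate 2 or Torin replicate 3 (limma adjusted p = 0.0624, 0.0564 and 0.101). EGR1 was at 12.0 and 9.24, a fall of 0.64 (SE 0.23, limma adjusted p = 0.0223), which was lost without WT replicate 2 (limma adjusted p = 0.10) or Torin replicate 3 (0.223). FOSL1, at 4.92 and 4.98, lay below the lowest untreated library at 5.07 but did not pass (-0.35, 95% confidence interval -0.96 to 0.26).

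**Figure D2:**
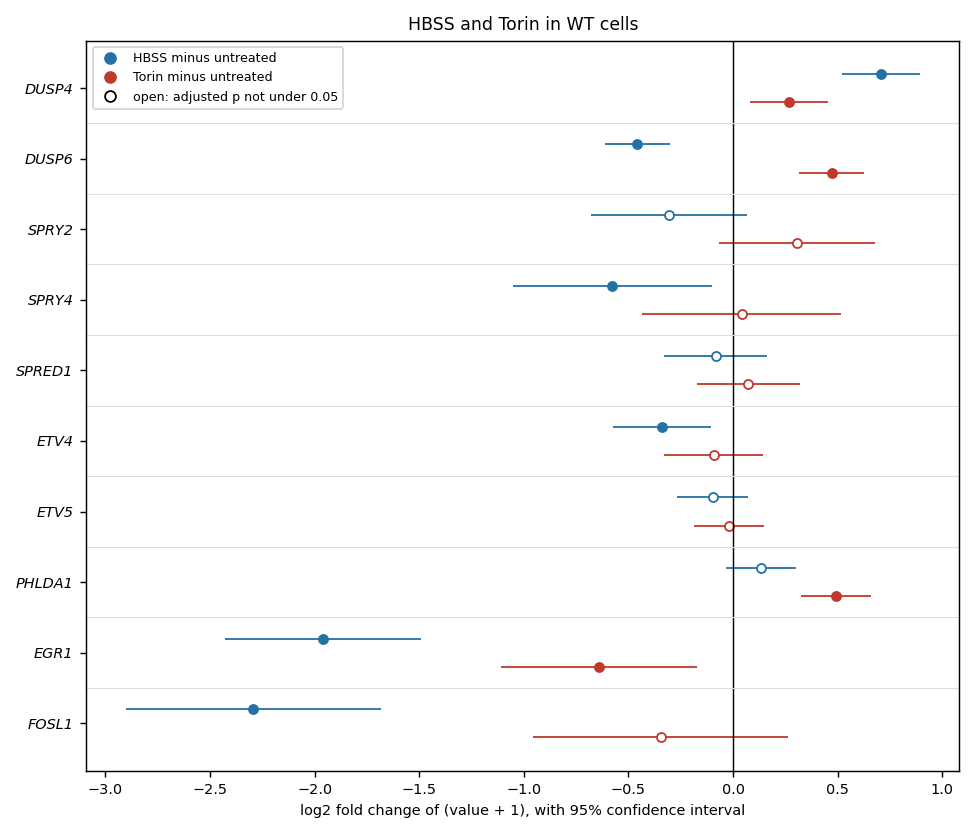
Log2 fold change of (value + 1) with its 95% confidence interval for HBSS (blue) and Torin (red) against untreated WT cells, with open points where the adjusted p was not under 0.05. DUSP6 lies at -0.46 in HBSS and at 0.47 with Torin, and EGR1 and FOSL1 lie farthest to the left in HBSS.

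Both treatments share the untreated libraries, so they were also compared directly. Of the 10 genes, 7 differed between HBSS and Torin, 6 lower and 1 higher in HBSS, against 49.2% of all genes (23.1% lower, 26.1% higher). DUSP6 was 47.6% lower in HBSS than with Torin (log2 -0.93, SE 0.08, limma adjusted p = 9.3e-13). EGR1 was 64.3% lower (log2 -1.32, SE 0.26, limma adjusted p = 2.9e-05) and FOSL1 was lower by 1.95 on the log2 scale (SE 0.33, limma adjusted p = 3.5e-06), a value that ran from log2 -3.71 to -1.32 over the alternatives without the identical column. PHLDA1 was lower in HBSS by log2 -0.36 and DUSP4 was higher by log2 0.44. SPRY2 (log2 -0.61) and SPRY4 (log2 -0.62) were lower as well. The SPRY2 difference was lost without HBSS replicate 2 or Torin replicate 2 (limma adjusted p = 0.0550 and 0.0722). The SPRY4 difference was lost without HBSS replicate 1 or Torin replicate 3 (limma adjusted p = 0.279 and 0.252) and with edgeR, DESeq2 or only these groups (adjusted p = 0.0625, 0.0820 and 0.0942). SPRED1, ETV4 and ETV5 did not pass.

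The knockouts address whether the response to Torin needs TFE3 or TFEB. In TFE3 KO cells 6 of 10 genes changed (51.4% of all genes), 2 up (25.4%) and 4 down (26%). In TFEB KO cells 1 of 10 changed (38.3% of all genes), and it rose (17.4%). In DKO cells 5 of 10 changed (51.6% of all genes), 2 up (25.4%) and 3 down (26.2%). PHLDA1 was the only one of the 10 that changed in all 4 genotypes. The nuclear factors EGR1 and FOSL1 fell in TFE3 KO and DKO cells, and SPRY4 and ETV4 fell in TFE3 KO cells.

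PHLDA1 rose with Torin from 147, 149 and 141 to 206, 210.0 and 203 in TFE3 KO cells (1.42-fold, log2 0.50, limma adjusted p = 1.6e-07). The TFEB KO values went from 165, 151 and 139 to 192, 185 and 175 (1.21-fold, log2 0.28, limma adjusted p = 0.0022). The DKO values went from 158, 155 and 165 to 206, 212 and 205 (1.31-fold, log2 0.38, limma adjusted p = 2.4e-05). The Torin libraries lay above the controls in every genotype, and the rise in TFEB KO cells was the smallest of the 4, although its difference from WT did not pass (log2 -0.21, 95% confidence interval -0.43 to 0.01).

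DUSP6 rose in TFE3 KO cells from 271, 282 and 282 to 375, 383 and 331 (log2 0.38, SE 0.07, limma adjusted p = 8.8e-06). It rose in DKO cells from 238, 229 and 227 to 294, 272 and 272 (log2 0.27, SE 0.07, limma adjusted p = 0.0011). In TFEB KO cells it was at 233, 244 and 237 without and at 263, 278 and 259 with Torin, groups that do not overlap, yet the test was missed (log2 0.16, SE 0.07, limma adjusted p = 0.0567). DUSP6 passed there with edgeR (log2 0.22, adjusted p = 0.0125) and with DESeq2 (log2 0.21, adjusted p = 0.0069). DUSP4, which rose in WT cells, fell in DKO cells from 107, 118 and 113 to 87.8, 105 and 95 (log2 -0.23, SE 0.08, limma adjusted p = 0.0175), a fall that was lost with edgeR (adjusted p = 0.0594) and without DKO control replicate 2 or DKO Torin replicate 1 (limma adjusted p = 0.0804 and 0.125). In TFE3 KO cells (log2 -0.13) and TFEB KO cells (log2 0.05) it did not pass.

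EGR1 was at 19.8, 29.4 and 20.1 in TFE3 KO controls and at 7.42, 7.57 and 7.91 with Torin. This is a fall of 67.0% (log2 -1.46, SE 0.21, limma adjusted p = 7.5e-08). In DKO cells EGR1 went from 9.66, 9.76 and 10.02 to 6.0, 3.41 and 2.75, a fall of 58.7% (log2 -1.15, SE 0.21, limma adjusted p = 8.7e-06). Its TFEB KO values of 15.7, 11.8 and 11.9 without and 12.1, 11.0 and 12.2 with Torin overlapped (log2 -0.14, 95% confidence interval -0.56 to 0.28).

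FOSL1 (chr11:65892049-65900573, hg38, minus strand) went in TFE3 KO cells from 9.01, 7.36 and 8.73 to 2.54, 1.34 and 0.832, the Torin libraries standing on 4 to 12 reads. It fell by 81.2% (log2 -1.92, SE 0.27, limma adjusted p = 5.9e-08). In DKO cells it went from 10.3, 8.72 and 5.01 to 4.61, 3.98 and 4.13 (log2 -0.73, SE 0.27, limma adjusted p = 0.0210). The DKO fall was lost with a pseudocount of 0.1 in place of 1 (limma adjusted p = 0.241) and without DKO control replicate 1, DKO control replicate 2 or DKO Torin replicate 2 (limma adjusted p = 0.133, 0.0761 and 0.0582). FOSL1 in TFEB KO cells was at 7.74, 5.44 and 5.14 without and at 4.31, 4.55 and 3.87 with Torin, and it did not pass (log2 -0.42, 95% confidence interval -0.97 to 0.12).

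SPRY4 fell in TFE3 KO cells from 10.1, 12.1 and 7.80 to 6.36, 4.90 and 3.33 (log2 -0.92, SE 0.21, limma adjusted p = 0.00028). ETV4 fell there from 65.9, 61.5 and 63.9 to 44.5, 41.6 and 44.1 (log2 -0.54, SE 0.11, limma adjusted p = 2.3e-05). For both genes the groups did not overlap. In TFEB KO cells SPRY4 (log2 0.19, 95% confidence interval -0.23 to 0.62) and ETV4 (log2 -0.04, -0.26 to 0.17) did not pass, and in DKO cells they did not either (SPRY4 log2 -0.40, -0.83 to 0.03 and ETV4 log2 -0.14, -0.35 to 0.07). SPRY2, SPRED1 and ETV5 passed the test with Torin in 0 of the 4 genotypes by limma. SPRY2 had an unadjusted p of 0.0406 in DKO cells, and edgeR called SPRED1 in TFEB KO and DKO cells and SPRY2 in DKO cells.

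**Figure D3:**
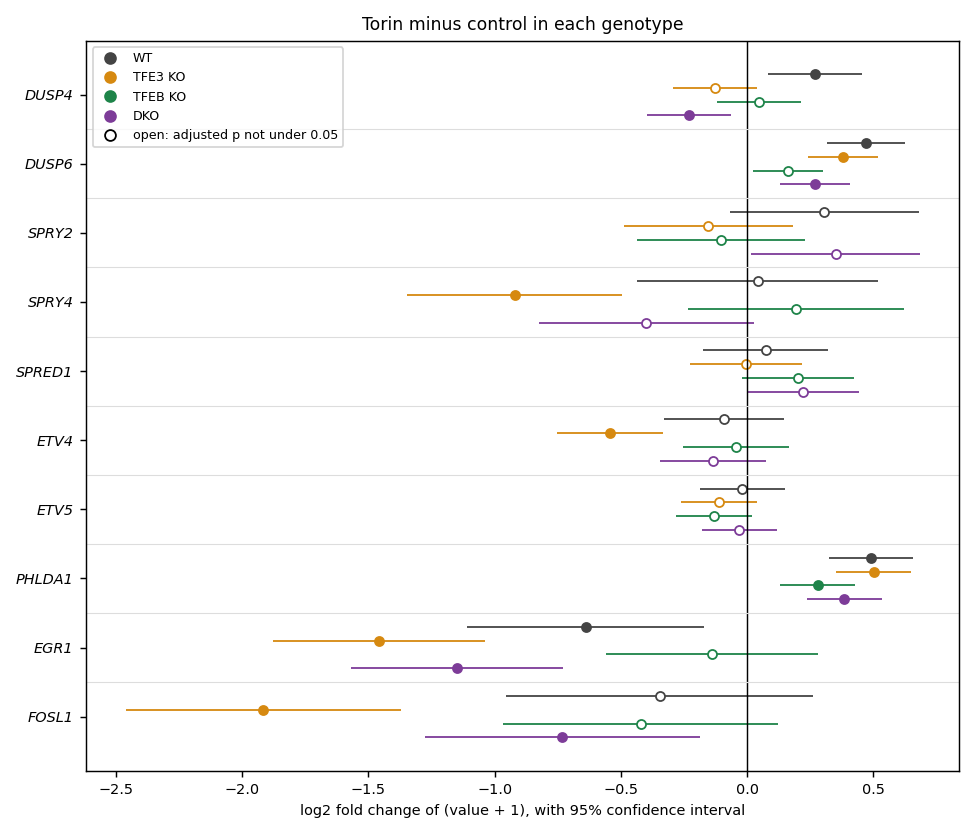
Log2 fold change of (value + 1) with Torin against control in cells of each of the 4 genotypes, with 95% confidence intervals and open points where the adjusted p was not under 0.05. PHLDA1 lies right of 0 with a filled point in all 4 genotypes, and EGR1 and FOSL1 lie farthest left in TFE3 KO cells, at -1.46 and -1.92.

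Whether the responses differ between genotypes was tested as an interaction. Against WT, the response of 1 of 10 genes differed in TFE3 KO cells (1.06% of all genes), 0 of 10 in TFEB KO cells (1.16%) and 1 of 10 in DKO cells (0.506%). In TFEB KO cells 1 gene, DUSP6, had an unadjusted p under 0.05 (log2 -0.31, limma adjusted p = 0.137), edgeR called 0 of 10 there, and DESeq2 called 0 of the 6 to which it gave an adjusted p. FOSL1 fell further with Torin in TFE3 KO than in WT cells, by 1.57 on the log2 scale (SE 0.41, limma adjusted p = 0.0404). That call was lost with a pseudocount of 0.1 (limma adjusted p = 0.377), with edgeR (adjusted p = 0.0641) and on leaving out WT replicate 2 or 3, Torin replicate 2 or 3, TFE3 KO control replicate 1, 2 or 3, or TFE3 KO Torin replicate 2 or 3 in turn (limma adjusted p = 0.0537 to 0.152). DUSP4 rose with Torin in WT and fell in DKO cells, a difference of -0.50 (SE 0.12, limma adjusted p = 0.0469). It was lost with a pseudocount of 0.1 (limma adjusted p = 0.0518), with edgeR (adjusted p = 0.0557), with only these groups (limma adjusted p = 0.12) and on leaving out WT replicate 2 or 3, Torin replicate 2 or 3, DKO control replicate 2 or 3, or DKO Torin replicate 1 or 3 in turn (limma adjusted p = 0.0598 to 0.197).

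The TFE3 KO and TFEB KO clones were also compared with each other, a comparison chosen after the values had been seen. It contrasts 4 knockout groups of 3 libraries, and its spread was estimated from all 25 libraries. The response to Torin differed for 4 of 10 genes, all 4 lower in TFE3 KO cells, against 7.68% of all genes (4.58% lower). These were EGR1 (log2 -1.32, SE 0.30, limma adjusted p = 0.0022), FOSL1 (log2 -1.49, SE 0.38, limma adjusted p = 0.0083), SPRY4 (log2 -1.11, SE 0.30, limma adjusted p = 0.0130) and ETV4 (log2 -0.50, SE 0.15, limma adjusted p = 0.0269). With the identical column kept as WT Torin, none of these 4 passed (limma adjusted p = 0.212, 0.0977, 0.121 and 0.106 in that order), and with only the 12 libraries compared all 4 did. The log2 values of the 4 did not move with the column, because this contrast holds no WT Torin library. The column acted through the shared estimate of the spread. EGR1 passed in every alternative in which the identical column was not in WT Torin. FOSL1 was lost with a pseudocount of 0.1 (limma adjusted p = 0.163). SPRY4 was lost without TFE3 KO control replicate 2 (limma adjusted p = 0.0574) or TFE3 KO Torin replicate 3 (0.0641). ETV4 was lost on leaving out TFEB KO control replicate 1 or 2, TFEB KO Torin replicate 1 or 2, TFE3 KO control replicate 1 or 3, or TFE3 KO Torin replicate 2 in turn (limma adjusted p = 0.0538 to 0.0824). The other 6 genes did not pass, DUSP6 among them (log2 0.22, 95% confidence interval 0.02 to 0.41, limma adjusted p = 0.179).

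Without drug, the single knockouts differed from WT in 1 of these genes each. DUSP6 was higher in TFE3 KO controls, at 271, 282 and 282 against 230.1, 243 and 220.1 (1.20-fold, log2 0.27, SE 0.07, limma adjusted p = 0.0071), where 9.41% of all genes changed (3.57% were higher). This was lost without WT replicate 3 (limma adjusted p = 0.0560). DUSP4 was higher in TFEB KO controls, at 146, 147 and 155 against 121, 113 and 109 (1.31-fold, log2 0.38, SE 0.08, limma adjusted p = 0.0009), where 14.6% of all genes changed (7.46% were higher). Both sets of libraries lay apart from those of WT.

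In DKO controls 5 of 10 genes differed from WT, 2 up and 3 down, against 13.1% of all genes (5.64% up, 7.49% down). ETV4 was higher, at 76.0, 69.0 and 84.5 against 55.5, 55.2 and 54.1 (log2 0.47, SE 0.11, limma adjusted p = 0.0013). SPRY4 was higher, at 12.8, 13.4 and 11.6 against 7.89, 6.14 and 6.83 (1.81-fold, log2 0.78, SE 0.21, limma adjusted p = 0.0087). EGR1 was lower, at 9.66, 9.76 and 10.02 against 15.4, 20.2 and 15.6, a fall of 42.6% (log2 -0.73, SE 0.21, limma adjusted p = 0.0120). SPRY4 and ETV4, which encode a pathway inhibitor and an ETS factor, thus lay higher while EGR1 lay lower in the same libraries.

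SPRY2 was lower in DKO controls, at 12.0, 10.8 and 11.4 against 16.6, 15 and 21.9 (log2 -0.59, SE 0.17, limma adjusted p = 0.0115), and SPRED1 was lower, at 44.2, 42.0 and 50.4 against 58.7, 63.5 and 55.8 (log2 -0.38, SE 0.11, limma adjusted p = 0.0150). The EGR1 call was lost without WT replicate 2 (limma adjusted p = 0.0893). The SPRY2 call was lost without WT replicate 3 or DKO replicate 2 (limma adjusted p = 0.129 and 0.0503) and the SPRED1 call without WT replicate 2, DKO replicate 1 or DKO replicate 2 (limma adjusted p = 0.0856, 0.0520 and 0.0929).

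**Figure D4:**
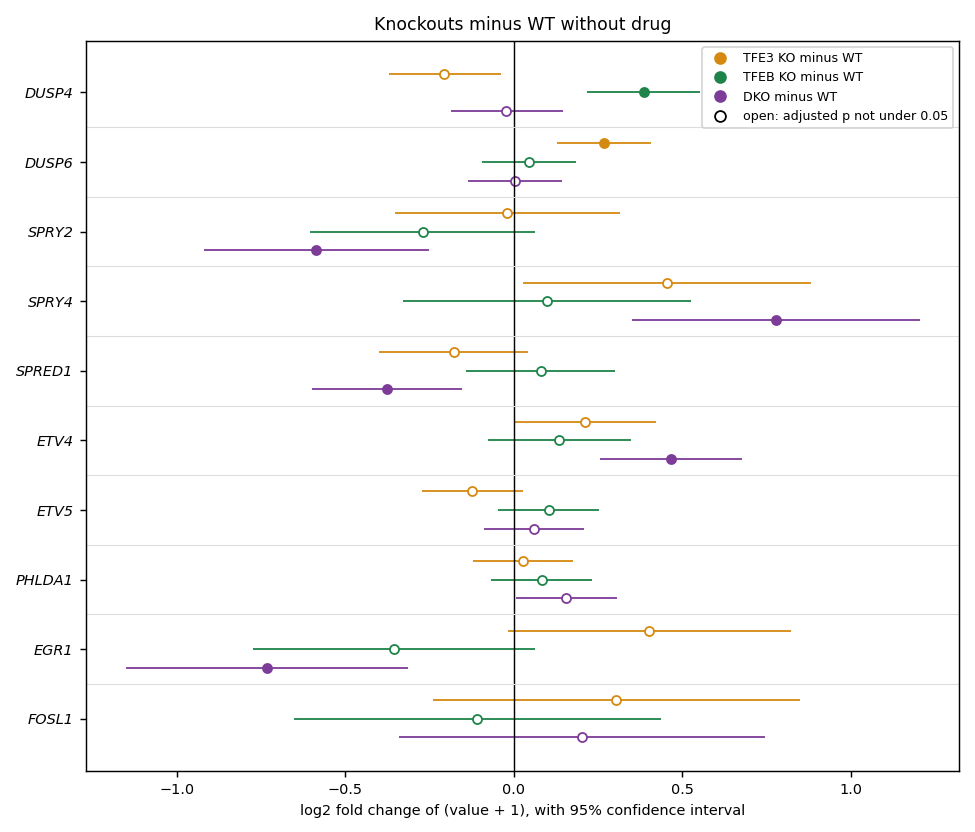
Log2 fold change of (value + 1) of TFE3 KO, TFEB KO and DKO controls against untreated WT cells, with 95% confidence intervals and open points where the adjusted p was not under 0.05. Filled points are DUSP6 in TFE3 KO, DUSP4 in TFEB KO, and SPRY2, SPRY4, SPRED1, ETV4 and EGR1 in DKO cells.

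Between the single knockouts without drug, 4 of 10 genes differed, against 29.9% of all genes. DUSP4 was lower in TFE3 KO controls, at 94.8, 99.99 and 102, than in TFEB KO controls (log2 -0.59, SE 0.08, limma adjusted p = 2.0e-07). DUSP6 (log2 0.22, limma adjusted p = 0.0108) and EGR1 (log2 0.76, limma adjusted p = 0.0043) were higher in TFE3 KO controls and ETV5 was lower (log2 -0.23, limma adjusted p = 0.0174). The EGR1 difference was lost without TFE3 KO replicate 2 (limma adjusted p = 0.0632), and the ETV5 difference without TFEB KO replicate 1 or TFE3 KO replicate 2 (limma adjusted p = 0.0641 and 0.0632).

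With Torin, 2 of 10 genes differed from WT in TFE3 KO cells (9.64% of all genes), 2 of 10 in TFEB KO cells (18% of all genes) and 4 of 10 in DKO cells (12.1% of all genes). DUSP4, at 136 and 139 in WT cells with Torin, was lower in TFE3 KO cells at 87.8, 99.97 and 84.3 (log2 -0.60, SE 0.09, limma adjusted p = 5.6e-06). It was lower in DKO cells at 87.8, 105 and 95 (log2 -0.52, SE 0.09, limma adjusted p = 7.0e-05), and it did not pass in TFEB KO cells at 163, 149 and 151 (log2 0.17). EGR1 was lower in DKO than in WT cells with Torin (log2 -1.24, SE 0.23, limma adjusted p = 0.00016).

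FOSL1 was lower in TFE3 KO than in WT cells with Torin (log2 -1.26, SE 0.30, limma adjusted p = 0.0037), a call lost with a pseudocount of 0.1 (limma adjusted p = 0.107). ETV4 was higher in DKO cells (log2 0.42, limma adjusted p = 0.0118), which was lost without Torin replicate 2 of WT or DKO Torin replicate 3 (limma adjusted p = 0.209 and 0.0604). DUSP6 (log2 -0.26, limma adjusted p = 0.0131) and SPRY2 (log2 -0.68, limma adjusted p = 0.0075) were lower in TFEB KO than in WT cells with Torin. The DUSP6 call was lost without WT Torin replicate 2 or 3 (limma adjusted p = 0.0939 and 0.0734) and the SPRY2 call without WT Torin replicate 2 (limma adjusted p = 0.0824). SPRY2 was also lower in DKO cells (log2 -0.54, limma adjusted p = 0.0454), which was lost with DESeq2 (adjusted p = 0.0568), with a pseudocount of 0.1 (limma adjusted p = 0.0509) and on leaving out either WT Torin library or any of the DKO Torin libraries (limma adjusted p = 0.0684 to 0.236).

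The 10 genes did not share 1 pattern across the 9 groups. Over the 9 group means of log2(value + 1), SPRY4 and ETV4 were the most alike (Pearson r = 0.965), followed by SPRY4 and FOSL1 (r = 0.848) and ETV4 and FOSL1 (r = 0.798). EGR1 and FOSL1 had r = 0.738. The phosphatases DUSP4 and DUSP6 ran in opposite directions (r = -0.651), and DUSP6 was closer to PHLDA1 (r = 0.656). These are descriptions over 9 points that share cell line, treatments and library preparation. Among 9858 genes with a mean of at least 5, the 5 most like DUSP6 by the same measure were RNASET2 (r = 0.980), ZNF195, CFAP44, SNX14 and ENOSF1 (r = 0.971), and none of the 10 was among them.

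Other genes of the pathway were taken from lists of 63 symbols, of which 59 were in the table and 58 were tested. DUSP2, SPRY3, EGR4 and LIF had no row, and ZFP36 did not pass the filter. In HBSS 29 of 58 changed, 14 up and 15 down, and with Torin 23 of 58 changed in WT, 31 in TFE3 KO, 18 in TFEB KO and 28 in DKO cells. These shares are near those of all genes given above. The cascade itself (RAS, RAF, MEK and ERK genes with their adaptors and GTPase activators) had 23 genes. Of these, 10 changed in HBSS (48.3% of all genes), 5 up (23.6%) and 5 down (24.7%). With Torin in WT cells 12 changed (43.9% of all genes), 5 up (20.5%) and 7 down (23.4%). Both totals are near the shares of all genes. MAP2K1, which encodes the kinase MEK1, fell with Torin in WT cells from a mean of 26.1 to 11.3 (log2 -1.14, limma adjusted p = 7.4e-06). Among the 9 other feedback inhibitors tested, 4 changed in HBSS (48.3% of all genes) and 2 with Torin in WT cells (43.9% of all genes).

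The largest changes in the wider lists were those of PHLDA2, a relative of PHLDA1. PHLDA2 fell in HBSS from a mean of 76.3 to 11.7 (log2 -2.62, limma adjusted p = 4.0e-20). With Torin it fell in WT cells to 14.1 (log2 -2.35), in TFE3 KO cells from 128 to 16.1 (log2 -2.93), in TFEB KO cells from 59.9 to 16.5 (log2 -1.81) and in DKO cells from 164 to 21.4 (log2 -2.89). PHLDA1 thus rose with Torin in each genotype while PHLDA2 fell. MYC, a growth-promoting transcription factor, rose with Torin in all 4 genotypes, from a mean of 14.9 to 40.9 in WT, from 13.3 to 30.7 in TFE3 KO, from 8.65 to 25.2 in TFEB KO and from 12.2 to 31.9 in DKO cells. DUSP5, a nuclear ERK phosphatase, fell in TFE3 KO (log2 -1.02), TFEB KO (log2 -1.26) and DKO cells (log2 -1.35) and did not pass in WT cells (log2 -0.44).

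In HBSS the stress-responsive factor ATF3 rose from a mean of 7.87 to 39.2 (log2 2.20, limma adjusted p = 2.5e-11) and the ETS factor ETS1 from 66.8 to 192 (log2 1.51, limma adjusted p = 5.9e-16). Of the 14 other immediate-early and AP-1 genes tested, 4 rose, 3 fell and 7 did not pass in HBSS, shares near those of all genes (23.6% up, 24.7% down). IER3, an immediate-early gene, and CCND1, the cyclin that drives entry into S phase, fell further with Torin in TFE3 KO than in WT cells (log2 -0.66 and -0.61, limma adjusted p = 0.00084 and 0.0029). CCND1 was at means of 373 and 244 without and with Torin in TFE3 KO cells and at 363 and 359 in WT cells. In the comparison of the single knockouts, the responses of JUN (log2 1.27), PHLDA2 (log2 -1.12) and IER3 (log2 -0.81) differed most. Genes of the wider lists were not rerun in the alternative fits, so how far their calls depend on single libraries was not tested.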

How the data were processed

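QuantSeq Forward 3′ libraries of 501mel cells were read from 1 deposited table. Per the study's methods and the submitters' processing notes, the authors checked reads with FastQC 0.11.9, trimmed them with trim_galore (cutadapt 2.10), mapped them with STAR 2.7.8a to hg38 and normalised counts with edgeR. The read counter, annotation, scaling and gene filter are not given in the sources used here. The deposited values are a signal, CPM divided by a factor per library. In every library 100% of them were whole multiples of the value of 1 read (within 0.01), which gave back the reads, 4147050 to 6526392 per library.

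Genes reaching a value of 1 in 3 or more libraries were tested with limma 3.58.1 (R 4.3.3, trend and robust) on log2(value + 1), without a replicate block, with Benjamini-Hochberg adjusted p-values over 13052 genes. The log2 fold changes are on that scale and understate low genes, while percentages and folds compare group means of the values. Alternatives were a pseudocount of 0.1, a minimum value of 5, no filter, median-of-ratios rescaling, edgeR 4.0.16 quasi-likelihood and DESeq2 1.42.0 on the recovered reads, a replicate block, only the groups compared, each library left out, and the identical column kept as WT HBSS, as WT Torin or as both. The script was tested on simulated data. Named genes are the 10 members, TFE3 and TFEB, up to 3 changed genes per comparison with the largest changes among the wider lists with a mean of at least 5, and the 5 genes most like DUSP6. SPRY4-IT1 and the genes named for a list count lie outside this rule. The members and lists were chosen with earlier results of these data known.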

Additional observations from a re-analysis of the deposited data

Results flagged for a closer look

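The response to Torin differed between genotypes, by a test of the difference itself, for 6 pairs of member gene and comparison. Against WT, FOSL1 fell further in TFE3 KO cells (log2 -1.57) and DUSP4, which rose in WT cells (log2 0.27), fell in DKO cells (log2 -0.23), a difference of log2 -0.50. Between the single knockouts, SPRY4 (log2 -1.11), ETV4 (log2 -0.50), EGR1 (log2 -1.32) and FOSL1 (log2 -1.49) responded more negatively in TFE3 KO than in TFEB KO cells. The latter comparison was chosen after seeing the data. Of the 6 pairs, EGR1 alone passed in every alternative in which the identical column stayed out. None passed with that column kept as WT Torin. For the pairs between the single knockouts the log2 values stayed the same there, and the column acted through the shared estimate of the spread. Each knockout is 1 clone, so clone and genotype cannot be told apart.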

How the results depend on the processing

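Of 54 changes of a member in a comparison, 30 passed in every alternative in which the identical column stayed out. Counts of changed members by comparison ranged, with 1 library left out in turn, from 5 to 6 for HBSS, 2 to 4 for Torin in WT, 6 to 6 in TFE3 KO, 1 to 1 in TFEB KO and 3 to 6 in DKO cells. They were 0 to 1, 1 to 1 and 3 to 5 for TFE3 KO, TFEB KO and DKO against WT without drug, 2 to 4 between the single knockouts, 2 to 2, 0 to 2 and 2 to 3 for TFE3 KO, TFEB KO and DKO against WT with Torin, 0 to 1, 0 to 0 and 0 to 1 for the same 3 interactions, 6 to 7 for HBSS against Torin and 3 to 4 for the interaction between the single knockouts.

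Torin in TFEB KO cells changed 1 member by limma, 2 with a minimum value of 5, with median-of-ratios rescaling or with DESeq2, and 3 with edgeR. TFE3 KO against WT with Torin had 1 in place of 2 with a pseudocount of 0.1. The TFE3 KO interaction with WT had 0 in place of 1 with a pseudocount of 0.1 or edgeR, and the DKO interaction had 0 in place of 1 with a pseudocount of 0.1, edgeR, the replicate block or only the groups compared. Median-of-ratios rescaling moved the median of all genes by at most 0.038 on the log2 scale. DESeq2 gave no adjusted p for some members in the interactions, and counts with such a member missing were not made.

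Kept as WT HBSS, the identical column raised the members changed in HBSS from 6 to 8, with SPRY2 (log2 -0.49) and PHLDA1 (log2 0.17) added. Kept as WT Torin or as both, it changed more. Torin in DKO cells then had 2 in place of 5, TFE3 KO against WT without drug 0 in place of 1, DKO against WT without drug 1 in place of 5, the single knockouts without drug 1 in place of 4, TFEB KO against WT with Torin 0 in place of 2, both called interactions with WT 0 in place of 1, the interaction between the single knockouts 0 in place of 4, and HBSS against Torin 3 (as WT Torin) or 4 (as both) in place of 7. DUSP6 in TFEB KO against WT with Torin turned from log2 -0.264 to 0.021. DUSP6 with Torin in WT cells was then at log2 0.19 (limma adjusted p = 0.294 as WT Torin). A change of sign was counted only where 1 of the 2 values passed the test. Comparisons with no WT Torin or WT HBSS library kept their log2 values. The column acted on them through the shared estimate of the spread.

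Same-numbered libraries of different groups deviated together in few of 92 pairs (r of -0.294 to 0.276, median 0.0138, 14 above 0.1). In 185 pairs with different numbers the median r was -0.0051. With 2 or 3 libraries per group these values cannot exclude pairing. The main fit used the numbers only as names of libraries. With the replicate block 2 calls were lost, SPRY2 in DKO against WT with Torin (limma adjusted p = 0.0663) and DUSP4 in the DKO interaction (limma adjusted p = 0.0577). Depth limits FOSL1, SPRY4 and EGR1, which rested on 0 to 66, 16 to 82 and 12 to 192 reads per library.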

Other observations

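The column deposited under both the WT HBSS and the WT Torin label entered no comparison. In it DUSP4 was at 185, DUSP6 at 177, ETV5 at 179, PHLDA1 at 169.9, SPRED1 at 54.7 and ETV4 at 50.9. SPRY2 was at 9.28, SPRY4 at 2.65, EGR1 at 1.70 and FOSL1 at 1.33. It had 12917 genes with a read, against 12895 and 12901 in the WT HBSS libraries and 13188 and 13181 in the WT Torin libraries. DUSP4, DUSP6, SPRY2, SPRY4, PHLDA1, EGR1 and FOSL1 lay nearer the WT HBSS libraries, and ETV5 lay nearer the WT Torin libraries. SPRED1 and ETV4 lay within the WT Torin range, SPRED1 also within that of WT HBSS. No condition was assigned to the column.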
